A study of Homo sapiens with 4 samples.

Results

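Collagen-modifying enzymes were examined in the established human lung cancer line H1792, labelled as wild type, after treatment with the degrader ACBI1. The set was chosen by gene symbol and holds 10 of the 61228 genes listed: the lysyl oxidases LOX, LOXL1, LOXL2, LOXL3 and LOXL4, the lysyl hydroxylases PLOD1, PLOD2 and PLOD3, and the prolyl 4-hydroxylase alpha subunits P4HA1 and P4HA2. All 10 had enough reads to be tested. RNA-seq libraries came from cells kept for 96 h with DMSO, the solvent control, or with ACBI1, at a dose that the labels write as 1 mM, which the counts cannot check. ACBI1 joins a ligand of the SWI/SNF ATPases SMARCA2 and SMARCA4 and of the subunit PBRM1 to a ligand of the VHL ubiquitin ligase, so that these chromatin-remodelling proteins are degraded. Each group had 2 libraries, numbered as replicates in the titles, and nothing in the labels says that they came from separate cultures. The p-values therefore measure only the spread between these libraries, which may be technical.

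Fibrillar collagen is modified in steps before and after it leaves the cell. In the endoplasmic reticulum, prolyl 4-hydroxylase turns prolines of the procollagen chain into hydroxyproline, which keeps the triple helix stable at body temperature, and lysyl hydroxylases turn lysines into hydroxylysine; both enzyme families need iron, oxoglutarate, oxygen and ascorbate. Outside the cell, the copper-dependent lysyl oxidases oxidise lysine and hydroxylysine side chains, and the aldehydes formed join neighbouring collagen or elastin molecules into crosslinks. In tumours these enzymes are known for stiffening the matrix, and several of them, among them LOX, PLOD2, P4HA1 and P4HA2, are known targets of the hypoxia-inducible factors.

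Counts in genes summed to 64281850 to 86010100 per library, so that the 8 abundant members rested on 1643 to 33505 counts in each library and LOXL3 and LOXL4 on 22 to 458. The libraries of a group correlated across genes with Pearson's r of log2 CPM of 0.983 (DMSO) and 0.986 (ACBI1); genes are not independent replicates. Transcripts of the degrader's target genes do not check the loss of the proteins; in CPM, counts relative to the TMM-scaled library total, SMARCA4 was at 284 and 216 with DMSO and at 414 and 398 with ACBI1 (log2 change 0.70, adjusted p = 0.0583), and neither SMARCA2 (log2 change -0.40) nor PBRM1 (0.10) was called. Of the epithelial markers, KRT7, KRT8 and KRT18 were abundant, while CDH1 had 4 to 16 counts per library and EPCAM was at 5.38 and 2.78 CPM with DMSO and at 15.6 and 4.84 CPM with ACBI1. Blood cell markers (PTPRC, CD3E, CD68) were near 0, with CD3E at 0 in each library. Of the endothelial markers, PECAM1 was at 12.2 and 48.1 CPM with DMSO and had 1 and 3 counts with ACBI1, VWF had 24 and 23 counts with DMSO and 0 in each ACBI1 library, and CDH5 had at most 4 counts per library; both tested endothelial markers, PECAM1 and VWF, were called lower. The summed epithelial markers were at 982 and 1035 CPM with DMSO and at 323 and 202 CPM with ACBI1. Of the 5 tested, 4 were called lower, among them the rare KRT19 at 3.44 and 5.00 against 0.961 and 0.503 CPM. Of all tested genes, 10.6% were called lower. KRT7 carried most of the epithelial sum with DMSO, at 678 and 680 against 179 and 60.3 CPM. EPCAM was higher but not called (log2 change 1.32, adjusted p = 0.179). The part of these markers in the results was not tested. In this bulk RNA, fewer cells with a transcript and less RNA per cell cannot be told apart.

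The promoters of 9 of the 10 members were found in the RefSeq table (GRCh38.p14), as windows from 250 bases before to 50 bases after the start. Where LOX and LOXL3 had more than 1 window, the first one listed was read. Because several of these enzymes are known hypoxia targets, both strands were searched for ACGTG and GCGTG, the core letters of the hypoxia response element. These cannot match at the same place on one strand, but a match on one strand can overlap a match on the other. ACGTG was found in 3 of the 9 windows, those of LOX, PLOD2 and P4HA1, against 21.4% of all 35116 windows. GCGTG was found in 2, those of PLOD1 and PLOD2, against 36.5% of all windows. The AP-1 letters TGANTCA matched in 0 of the 9 (7.71% of all windows), and the TEAD letters GGAATG in 2, those of LOXL3 and P4HA2 (14.03%). The stretches below show the members with ACGTG, with ACGTG and GCGTG in capitals on whichever strand they match (the reverse of ACGTG reads CACGT). For PLOD2 the 250 bases before the RefSeq start are given (chr3:146161185-146161434, minus strand). For LOX the part of the window upstream of its annotated exon is given (chr5:122078361-122078509, minus strand). For P4HA1 the match is given with 10 bases on each side (chr10:73096938-73096962, minus strand). The PLOD2 and P4HA1 stretches lie inside the GENCODE gene spans given below, because the RefSeq starts read here lie downstream of the GENCODE starts. These stretches therefore do not precede the GENCODE starts of PLOD2 and P4HA1. The LOX stretch lies outside its gene span.
PLOD2: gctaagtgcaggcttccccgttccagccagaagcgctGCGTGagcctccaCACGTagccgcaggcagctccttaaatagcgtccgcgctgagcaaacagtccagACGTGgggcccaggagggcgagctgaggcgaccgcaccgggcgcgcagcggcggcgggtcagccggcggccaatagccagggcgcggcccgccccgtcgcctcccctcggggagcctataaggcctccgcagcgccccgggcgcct
LOX: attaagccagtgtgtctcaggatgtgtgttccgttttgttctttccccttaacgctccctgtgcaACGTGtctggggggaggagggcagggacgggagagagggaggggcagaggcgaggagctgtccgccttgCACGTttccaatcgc
P4HA1: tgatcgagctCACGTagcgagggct
The LOX window holds 4 matches of ACGTG in all, 2 of them in the stretch shown. A match describes letters only.

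Enzyme transcripts were lower with ACBI1 in each of the 3 families. Of the 10 members, 7 were called lower at a Benjamini-Hochberg adjusted p under 0.05 and 0 higher in edgeR's quasi-likelihood test over 19159 genes, in which 10.6% of all tested genes were called lower and 6.75% higher. The 7 were LOX, LOXL1, PLOD1, PLOD2, PLOD3, P4HA1 and P4HA2. The median log2 change of the 10 was -1.61, beside 0.01 over all tested genes. In 9 of the 10, both ACBI1 libraries lay below both DMSO libraries, a separation that 32.2% of tested genes showed in this direction; the exception was LOXL3.

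The number of members called depended on the test and on single libraries. DESeq2 called 9 lower, all but LOXL3, against 13.6% of all genes, and so did edgeR with every gene that had a count kept, against 10.1% of those genes. In that edgeR fit the standard errors of abundant members were nearly alike (LOX 0.22, LOXL2 0.22, PLOD3 0.21). Its calls therefore hardly reflect each gene's own spread between replicates. The number was 8 with limma-voom (10.5% of all genes) and 6 with scaling by library size only (9.74%). A threshold of 0.01 left LOX, LOXL1 and P4HA2 (3.19% of all genes lower), and a minimum fall of 1 on the log2 scale left these and PLOD1 (8.71%). With a library left out, the lone library of its group is assumed to vary like those of the other group; the number was then 9 without DMSO replicate 1 (13.1% of the genes then tested), 6 without DMSO replicate 2 (8.57%), 4 without ACBI1 replicate 1 (4.82%) and 5 without ACBI1 replicate 2 (6.27%). LOX, LOXL1 and P4HA2 were called in each of these fits.

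**Figure D1:**
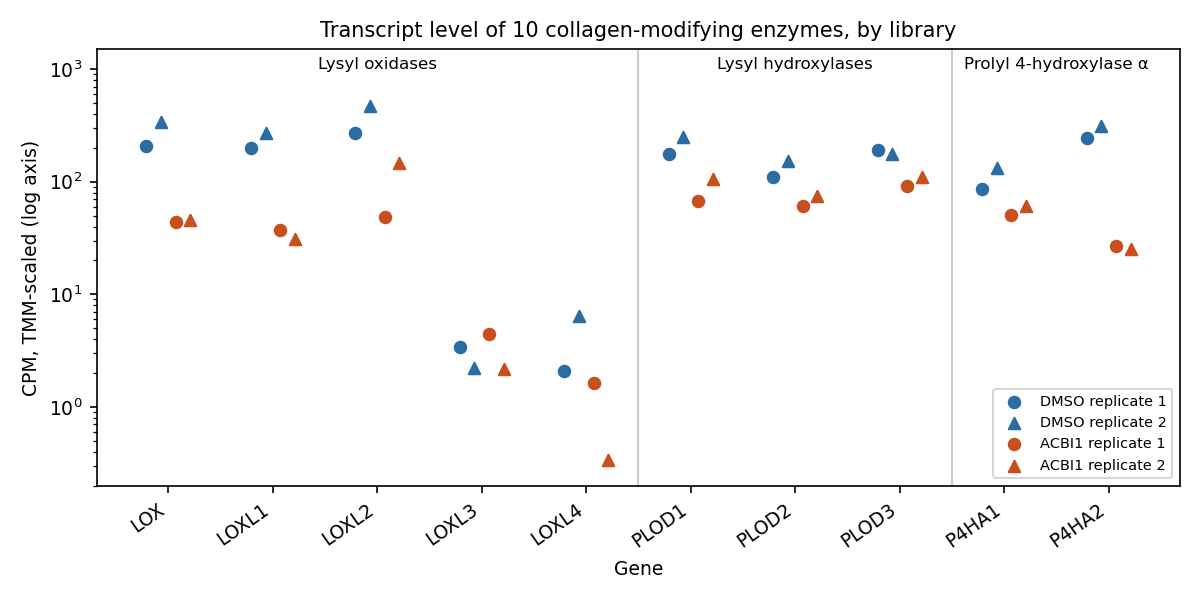
Level of each enzyme transcript in each of the 4 libraries, in CPM scaled by TMM on a log axis; blue marks DMSO, orange ACBI1, circles replicate 1 and triangles replicate 2. The orange points lie below the blue ones for every gene but LOXL3, and the ACBI1 replicates of LOXL2 lie at 48.3 and 145 CPM.

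LOX, the founding lysyl oxidase, is secreted as a proenzyme and acts on fibrillar collagen and elastin. Its level was 205 and 342 CPM in replicates 1 and 2 of the DMSO group and 43.9 and 45.5 CPM in those of the ACBI1 group, the order kept below. The ACBI1 libraries were close to each other and far below both controls, which differed from each other by 1.66-fold. LOX fell 6.12-fold (log2 change -2.61, SE 0.27, adjusted p = 0.00455). LOX lies at chr5:122063195-122078360 (minus strand, GRCh38), and 2.49% of its exonic length is overlapped by SRFBP1 on the other strand, which had a log2 change of 0.49 (adjusted p = 0.0875).

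LOXL1, the paralog best known for elastic fibres, was at 197 and 272 CPM with DMSO and at 37.5 and 31.3 CPM with ACBI1. Here too the groups stood far apart, with a fall of 6.82-fold (log2 change -2.77, SE 0.23, adjusted p = 0.00252). Its locus, chr15:73925989-73952137 (plus strand), is shared with the antisense gene LOXL1-AS1, whose exons overlap 9.21% of the LOXL1 exons. LOXL1-AS1 was at 20.4 and 19.5 CPM with DMSO and at 29.04 and 26.4 CPM with ACBI1, a log2 change of 0.47 that was not called (adjusted p = 0.104). Since no source used here says that the counting used strand, reads from an overlapping pair may be misassigned or set aside as ambiguous. The line for ambiguous reads held 4.41% to 5.07% of the listed reads of a library.

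LOXL2, a lysyl oxidase with scavenger receptor domains that crosslinks basement membrane collagen, had the highest CPM of the family with DMSO, 271 and 466, and stood at 48.3 and 145 CPM with ACBI1. Both ACBI1 values were below both controls, but the ACBI1 replicates differed by 3.01-fold, more than those of any other abundant member. The fitted log2 change of -1.93 (SE 0.54) was not called by edgeR (adjusted p = 0.0579), while DESeq2 (adjusted p = 6.77e-04) and limma-voom (adjusted p = 0.0450) called it, as did edgeR with every gene that had a count kept (adjusted p = 2.09e-17). With 1 library left out it was called without DMSO replicate 1 (log2 change -2.26), DMSO replicate 2 (-1.49) or ACBI1 replicate 2 (-2.94), and not without ACBI1 replicate 1 (-1.33, adjusted p = 0.0857). With every gene kept, the SE of LOXL2 was 0.22, beside the 0.54 above. LOX had 0.22 and PLOD1 0.21 there, so that fit hardly reflected the spread between replicates of LOXL2. LOXL2 lies on chromosome 8 (23297189 to 23425328, minus strand), and 5.22% of its exonic length is shared with other genes.

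The summed level of 6 fibroblast markers (DCN, LUM, PDGFRA, PDGFRB, COL1A1 and COL3A1) followed the order of LOXL2 over the libraries: it was 360 and 800 CPM with DMSO and 73.0 and 227 CPM with ACBI1. Replicate 2 was the higher library of each group for both, as it was for LOX, PLOD1, PLOD2 and P4HA1. It was not the higher library of each group for LOXL1, LOXL3, LOXL4, PLOD3 and P4HA2. Of all tested genes, 49.5% were higher in DMSO replicate 2 than 1, and 49.4% in ACBI1 replicate 2 than 1. The share of genes higher in replicate 2 of both groups was not computed. Deviations of same-numbered libraries from their group means correlated at 0.442 across genes. Of the 6 markers, 3 were called lower, beside 10.6% of all tested genes, and none was at 0 in every library. COL1A1 carried most of the sum, at 324 and 693 CPM with DMSO and at 62.3 and 210 CPM with ACBI1. COL1A1 itself was not called (log2 change -1.90, adjusted p = 0.0860). The part of these transcripts in the results of these members was not tested.

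LOXL3 and LOXL4 were rare. LOXL3, which also carries scavenger receptor domains, was at 3.38 and 2.20 CPM with DMSO and at 4.40 and 2.18 CPM with ACBI1, so the groups overlapped; the fitted log2 change was 0.24 (SE 0.44, adjusted p = 0.745). The sign turned without DMSO replicate 2 (-0.04) and without ACBI1 replicate 1 (-0.35). HTRA2 and DOK1, both on the other strand, overlap 19.3% of its exonic length, which makes the count of LOXL3 uncertain. The gene spans chr2:74532414-74555690.

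LOXL4, of the same structural group, was at 2.1 and 6.37 CPM with DMSO and at 1.62 and 0.336 CPM with ACBI1. The groups did not overlap, but the lower DMSO library was close to the higher ACBI1 library, and the log2 change of -2.09 (SE 0.83) was not called (adjusted p = 0.135). It was called without DMSO replicate 1 (log2 change -2.68, adjusted p = 0.00734) and without ACBI1 replicate 1 (-3.64, adjusted p = 0.0430), by DESeq2 (adjusted p = 0.0196) and with every gene that had a count kept (adjusted p = 4.89e-06). With every gene kept, the SE of LOXL4 was 0.41, beside the 0.83 above, so that fit reflected less of the spread between replicates. LOXL4 lies at chr10:98247690-98268250.

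**Figure D2:**
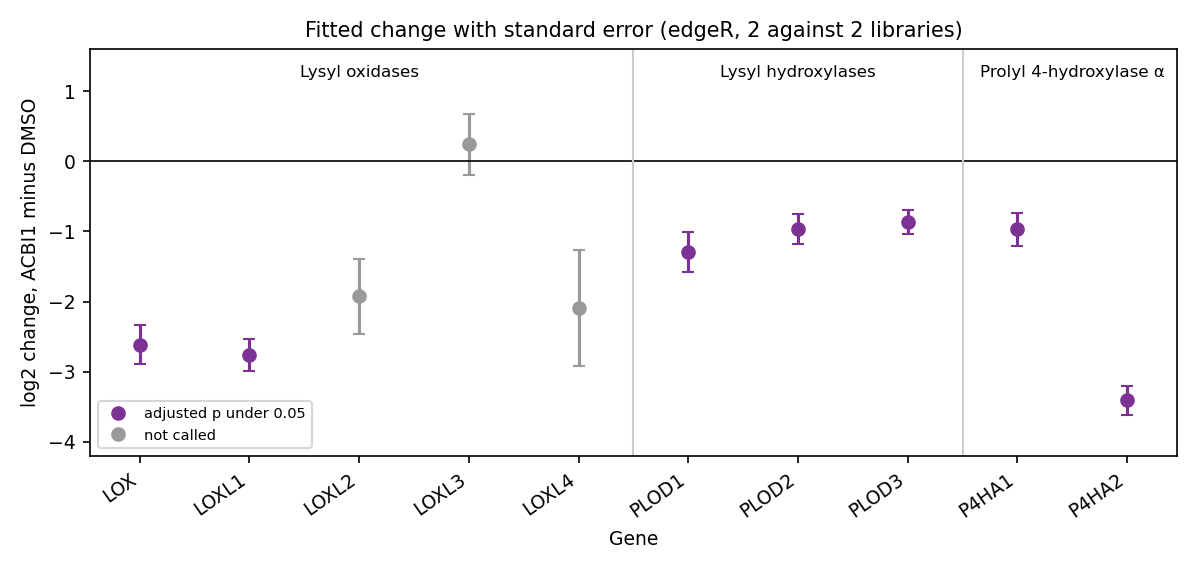
Fitted log2 change of each enzyme transcript, ACBI1 minus DMSO, with its standard error from edgeR over 2 libraries per group; purple points have an adjusted p under 0.05 and grey ones do not. P4HA2 is lowest at -3.41, and the lysyl hydroxylases and P4HA1 lie between -1.30 and -0.87.

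The 3 lysyl hydroxylases were all called lower, with falls of 1.83-fold to 2.46-fold, beside 10.6% of all tested genes called lower. PLOD1, whose product hydroxylates lysines in the collagen helix, was at 176 and 248 CPM with DMSO and at 66.7 and 106 CPM with ACBI1 (log2 change -1.30, SE 0.28, adjusted p = 0.0301). PLOD2, whose product hydroxylates the lysines of the telopeptides, where crosslinks start, was at 111 and 153 CPM with DMSO and at 60.7 and 74.1 CPM with ACBI1 (log2 change -0.97, SE 0.22, adjusted p = 0.0315). PLOD3, whose product also adds sugars to hydroxylysine, was at 193 and 177 CPM with DMSO and at 92.4 and 110 CPM with ACBI1 (log2 change -0.87, SE 0.17, adjusted p = 0.0231). In none of the 3 did the groups overlap, a separation that 32.2% of tested genes showed in this direction.

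Calls of these smaller falls were lost when some of the libraries were left out. PLOD1 was not called without ACBI1 replicate 1 (log2 change -0.996, adjusted p = 0.108). PLOD2 was not called without DMSO replicate 2 (-0.72, adjusted p = 0.0578), without ACBI1 replicate 1 (-0.82, adjusted p = 0.152) or without ACBI1 replicate 2 (-1.13, adjusted p = 0.0604). PLOD3 was not called without ACBI1 replicate 1 (-0.74, adjusted p = 0.148) or ACBI1 replicate 2 (-1.01, adjusted p = 0.0598). The genes lie at chr1:11934205-11975538 (PLOD1, plus strand), chr3:146069440-146163653 (PLOD2, minus strand) and chr7:101205977-101218420 (PLOD3, minus strand). Exons of other genes overlap neither PLOD1 nor PLOD2, whereas ZNHIT1 overlaps 7.56% of PLOD3; ZNHIT1 had a log2 change of -0.44 (adjusted p = 0.131).

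The alpha subunits of prolyl 4-hydroxylase, which carry the active site, fell by unlike amounts. P4HA2 was at 243 and 309 CPM with DMSO and at 26.8 and 25.1 CPM with ACBI1. Both replicate pairs were tight next to the distance between the groups, and the fall of 10.6-fold was the largest among the 10 members (log2 change -3.41, SE 0.20, adjusted p = 0.00141). Of the 19159 tested genes, 468 had a lower fitted log2 change. P4HA1, the main subunit of most cell types, was at 86.4 and 132 CPM with DMSO and at 50.7 and 60.6 CPM with ACBI1, a fall of 1.96-fold (log2 change -0.97, SE 0.24, adjusted p = 0.0419).

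The call of P4HA1 was near the threshold. It was lost under scaling by library size only (log2 change -0.89, adjusted p = 0.0509), without DMSO replicate 2 (-0.64, adjusted p = 0.0935), without ACBI1 replicate 1 (-0.84, adjusted p = 0.173) and without ACBI1 replicate 2 (-1.12, adjusted p = 0.0776). P4HA2 was called in each of these fits. P4HA1 lies at chr10:73007217-73096974 and P4HA2 at chr5:132191838-132295315, both on the minus strand. The antisense gene P4HA2-AS1, which overlaps 6.45% of the P4HA2 exons, had 4 and 11 counts with DMSO and 1 and 2 with ACBI1.

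The order of the alpha subunits in read counts was opposite in the groups. For each count of P4HA1 there were 2.81 and 2.35 counts of P4HA2 with DMSO, and 0.529 and 0.413 with ACBI1. This log2 ratio went from 1.36 ± 0.18 to -1.10 ± 0.25 (SD, n = 2), a change of -2.46. Per kb of exon union (the length of all annotated exons together), P4HA2 held 48.3% ± 3.18 of the alpha subunit signal with DMSO and 14.6% ± 2.16 with ACBI1 (SD, n = 2). Per kb of the longest annotated transcript, these shares were 68.5% and 28.5%. Which subunit was the more abundant with DMSO thus depended on the length used, while P4HA1 was ahead in both ACBI1 libraries with either length. For 2 against 2 libraries the exact two-sided permutation test cannot go below p = 0.333, the value found for this share and for this ratio, so neither can pass a threshold of 0.05.

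P4HB, also known as protein disulfide isomerase, is the beta subunit of the same tetramer and has other roles in the endoplasmic reticulum. It was far more abundant than either alpha subunit in reads, at 1892 and 2580 CPM with DMSO and 623 and 968 CPM with ACBI1 (log2 change -1.49, adjusted p = 0.0218; without ACBI1 replicate 1 -1.20, adjusted p = 0.0789). For each count of P4HB there were 0.0457 and 0.0511 counts of P4HA1 with DMSO and 0.0813 and 0.0626 with ACBI1. The same ratio for P4HA2 was 0.128 and 0.120 with DMSO and 0.0430 and 0.0259 with ACBI1. Relative to P4HB, P4HA1 was thus higher and P4HA2 lower in both ACBI1 libraries.

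In all, 7 such ratios between enzyme transcripts were computed; the 3 among P4HA1, P4HA2 and P4HB did not overlap between groups (exact permutation p = 0.333, 0.778 adjusted over the 7). The other 4 were LOXL1 or LOXL2 over LOX and PLOD1 or PLOD2 over PLOD3, and their groups overlapped. LOXL1 over LOX, for example, was 0.961 and 0.794 with DMSO and 0.855 and 0.687 with ACBI1. LOXL2 over LOX was 1.32 and 1.36 with DMSO and 1.10 and 3.19 with ACBI1, so that only ACBI1 replicate 2 stood apart.

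**Figure D3:**
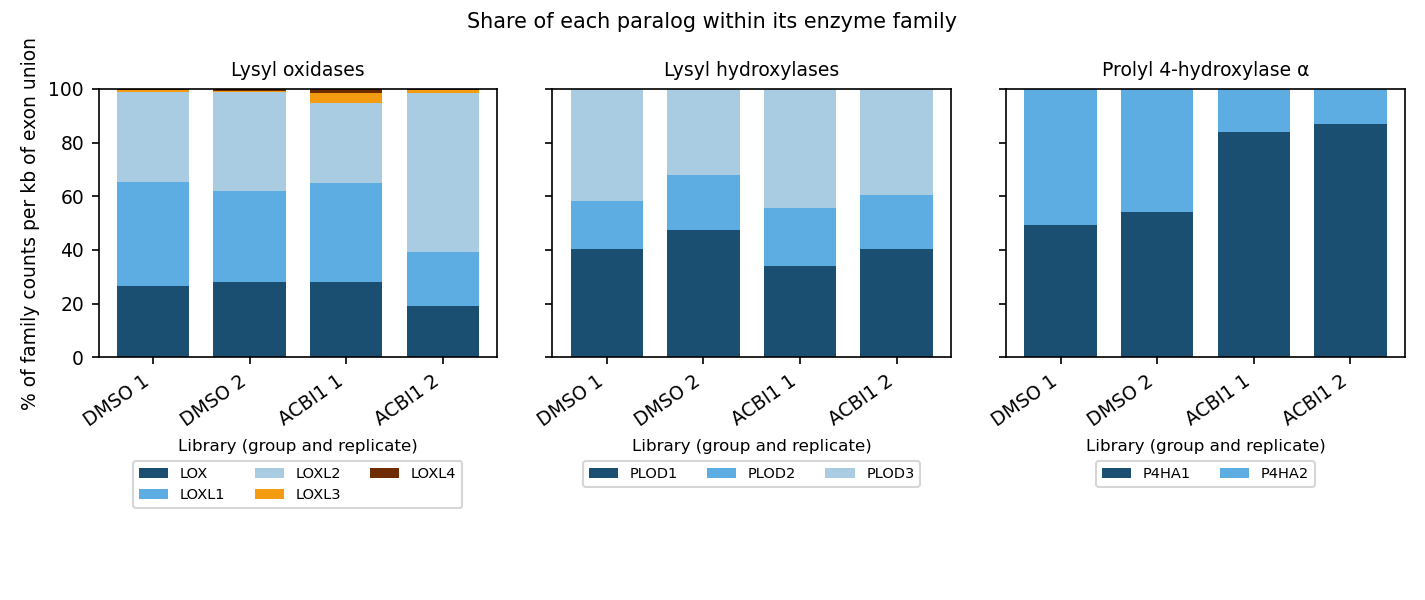
Stacked bars give, for each library, the percent of a family's counts per kb of exon union that each paralog holds. P4HA2 holds 50.5% and 46.0% in the DMSO libraries and 16.1% and 13.1% in the ACBI1 libraries, and LOXL2 takes 59.4% of the lysyl oxidases in ACBI1 replicate 2.

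Levels of different genes are comparable only per length, here in CPM per kb of exon union. With DMSO, LOXL2 (64.5), LOXL1 (64.5) and LOX (49.3) led the order, followed by PLOD1 (39.8), P4HA1 (35.3), PLOD3 (32.7), P4HA2 (32.5) and PLOD2 (17.3), with LOXL4 (1.16) and LOXL3 (0.639) last. Neighbours in this order overlapped between replicates from LOXL2 down to P4HA2, and again for LOXL4 and LOXL3. With ACBI1, P4HA1 (18.0), PLOD3 (17.9), LOXL2 (16.97) and PLOD1 (16.2) led, and neighbours among them overlapped. LOXL1 (9.46), PLOD2 (8.82) and LOX (8.06) followed, again with neighbours overlapping. These sets were not apart. LOXL2 was at 8.46 and 25.5 in ACBI1 replicates 1 and 2, a range that holds both LOXL1 values (10.3 and 8.60). P4HA2 (3.05), LOXL3 (0.754) and LOXL4 (0.268) came last, each apart from its neighbours. Per kb of the longest transcript, P4HA2 ranked 3 of 10 with DMSO (82.4) and 8 of 10 with ACBI1 (7.74).

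Summed over a family, the lysyl oxidases went from 140 and 220 CPM per kb with DMSO to 28.1 and 42.9 with ACBI1, leaving 19.7% of the mean. Lysyl hydroxylases went from 81.6 and 97.8 to 36.8 and 49.0 CPM per kb, leaving 47.8%. For the alpha subunits the sums were 56.5 and 79.0 against 19.5 and 22.5 CPM per kb, leaving 31.1%. In no family did the groups overlap (exact permutation p = 0.333 for each, the smallest possible). LOXL3 held 0.391% ± 0.229 of the lysyl oxidase sum with DMSO and 2.38% ± 1.71 with ACBI1 (SD, n = 2), its own level being alike in the groups within their spread.

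Partners of these enzymes were examined next, in lists chosen with earlier results of these data known. In the list for hydroxylation and folding, which holds P4HB, the prolyl 3-hydroxylases and collagen chaperones, 10 of 17 tested genes were called lower and 0 higher (10.6% and 6.75% of all tested genes), with a median log2 change of -0.93 beside 0.01 over all genes. SERPINH1, the collagen-specific chaperone HSP47, was at 513 and 577 CPM with DMSO and at 69.96 and 56.0 CPM with ACBI1, a fall of 8.65-fold (log2 change -3.11, adjusted p = 0.00182). PPIB, a proline isomerase of the endoplasmic reticulum, was at 616 and 839 against 204 and 253 CPM (log2 change -1.67, adjusted p = 0.00870). Without ACBI1 replicate 1 4 of the list were called (4.82% of all genes lower), and without ACBI1 replicate 2 there were 6 (6.27%).

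Procollagen processing went both ways, with 3 of 7 tested genes called lower and 2 higher, beside 10.6% and 6.75% of all tested genes (median log2 change -0.37). PCOLCE, an enhancer of the protease that removes the C-terminal propeptide, was at 125 and 209 CPM with DMSO and at 27.0 and 31.8 CPM with ACBI1 (log2 change -2.51, adjusted p = 0.00532). ADAMTS14, which removes N-terminal propeptides, was at 12.2 and 18.6 against 4.11 and 3.49 CPM (log2 change -2.02, adjusted p = 0.0102). The other gene called lower was BMP1, named after its values were seen. It was at 80.0 and 90.9 against 25.4 and 31.1 CPM (log2 change -1.60, adjusted p = 0.00532). The calls in the other direction were the rare tolloid-like proteases TLL2, with 6 counts in each DMSO library and 35 and 36 with ACBI1 (log2 change 2.55, adjusted p = 0.0242), and TLL1, named after its values were seen, at 0.860 and 1.00 against 3.74 and 2.75 CPM (log2 change 1.80, adjusted p = 0.0224). TLL2 was not called with any 1 library left out (adjusted p from 0.0567 to 0.124), nor TLL1 without ACBI1 replicate 1 (adjusted p = 0.0879), where the list held 3 calls.

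The lysyl oxidases act on proteins whose transcripts were in part lower too. In the list of substrates, partners and copper supply, 5 of 10 tested genes were called lower and 0 higher (median log2 change -1.87), against 10.6% of all genes lower, or 3 without ACBI1 replicate 1, against 4.82%. TGM2, a transglutaminase that crosslinks matrix proteins through glutamine and lysine, was at 1881 and 3323 CPM with DMSO and at 84.2 and 86.6 CPM with ACBI1 (log2 change -4.93, adjusted p = 0.00193). FN1, which encodes fibronectin, was at 3555 and 4636 against 504 and 970 CPM (log2 change -2.48, adjusted p = 0.00996). LUM, which encodes a proteoglycan on collagen fibrils, was at 5.04 and 15.1 against 0.570 and 1.65 CPM (log2 change -3.19, adjusted p = 0.0319; without ACBI1 replicate 1 adjusted p = 0.0717). ELN, which encodes elastin, had 1 to 6 counts per library and was not tested.

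Among fibrillar collagens, 4 of 10 tested genes were called lower and 0 higher (median log2 change -1.68), and among collagens of basement membranes and their vicinity 7 of 8 were lower and 0 higher (median log2 change -2.52), against 10.6% of all tested genes lower. DESeq2 called 7 fibrillar collagens, against 13.6% of all genes. COL24A1 went from 2.997 and 6.57 CPM to 0.268 and 0.305 CPM (log2 change -4.06, adjusted p = 0.00715). COL15A1 was at 313 and 220 CPM with DMSO and at 0.737 and 0.580 CPM with ACBI1 (log2 change -8.65, adjusted p = 7.00e-04). COL7A1, the anchoring fibril collagen, was at 1995 and 920 against 187 and 121 CPM (log2 change -3.24, adjusted p = 0.00816), and COL18A1 changed by -2.55 on the log2 scale (adjusted p = 0.00265). Of the fibrillar collagens, COL1A2 changed by -4.82 (adjusted p = 0.00731) and COL5A1 by -2.99 (adjusted p = 0.00231).

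Genes of oxygen sensing and hypoxia were mixed, with 6 of 17 called lower and 1 higher, beside 10.6% and 6.75% of all tested genes, and a median log2 change of -0.34. The other 10 were not called, among them BNIP3 (log2 change -0.46), PDK1 (-0.20), KDM3A (-0.33) and ANKRD37 (0.10), named after their values were seen. CA9, a carbonic anhydrase and hypoxia target, had 103 and 134 counts with DMSO and 1 in each ACBI1 library, so that the libraries differed by 120-fold (95% exact interval for counting error, 32.8 to 995). NDRG1, another hypoxia target, was at 35.1 and 45.8 against 9.37 and 10.5 CPM (log2 change -2.02, adjusted p = 0.00428). ADM, which encodes adrenomedullin, was at 71.2 and 203 against 34.9 and 30.7 CPM (log2 change -2.06, adjusted p = 0.0332). Its log2 change was -1.12 without DMSO replicate 2, and it was not called when either ACBI1 library was left out (highest adjusted p 0.0764). HIF1A, named after its values were seen, encodes the hypoxia-inducible subunit and was at 325 and 489 CPM with DMSO and at 103 and 101 CPM with ACBI1 (log2 change -1.99, adjusted p = 0.00636). EGLN1, the prolyl hydroxylase that marks that subunit for VHL, and also named after its values were seen, was the call in the other direction (log2 change 0.70, adjusted p = 0.0479); it was not called with any 1 library left out (adjusted p from 0.0695 to 0.247).

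**Figure D4:**
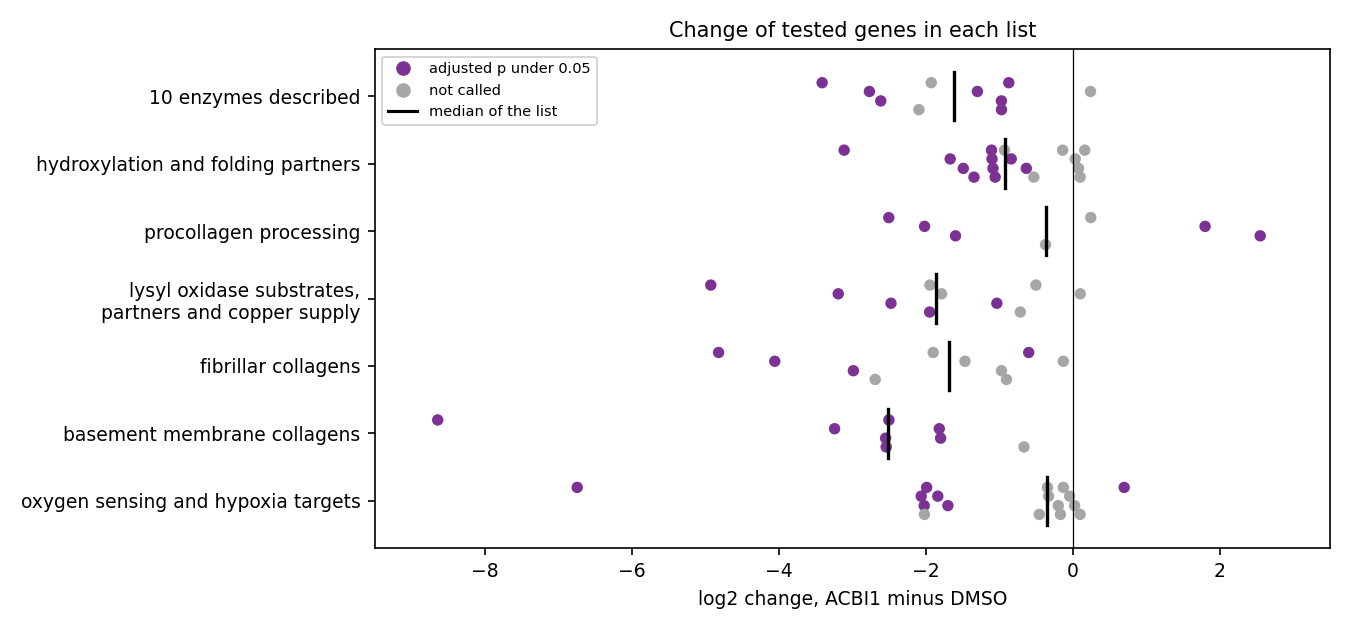
Each point is the log2 change (ACBI1 minus DMSO) of a tested gene in the set of 10 enzymes or in a list of partners, purple where the adjusted p was under 0.05; black bars are medians. Medians run from -2.52 for the basement membrane collagens to -0.34 for oxygen sensing and hypoxia.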

How the data were processed

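RNA-seq counts of 4 libraries (2 DMSO, 2 ACBI1) were used as the authors deposited them: whole-number read counts per gene symbol, not normalized. The submitters' processing notes name TopHat2 2.1.1, HTSeq 0.11.0 and hg38; settings, annotation and strand are not given in the sources used here. The 5 closing lines for reads given to no gene, 13.9% to 15.4% of reads, were left out.

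Genes were filtered with filterByExpr (minimum count 10, total 15; 19159 kept), scaled by TMM (factors 0.958 to 1.04) and tested for treatment alone in R 4.3.3 with edgeR 4.0.16 (glmQLFit, glmQLFTest, two-sided), with Benjamini-Hochberg adjustment over all tested genes. The SE is the log2 change over the square root of F. DESeq2 1.42.0 and limma 3.58.1 were alternatives, beside other scalings, filters, thresholds, the replicate number as a block and each library left out. The scripts were tested on simulated data. Intervals cover counting error only. Gene positions, lengths and exon overlaps came from GENCODE 29 (GRCh38), matched by symbol, and promoters from RefSeq.

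The members and lists were chosen with earlier results of these data known. Named genes are the 10 members, the degrader's targets, genes overlapping a member, and per list at most 3 called genes with the largest change. BMP1, TLL1, BNIP3, PDK1, KDM3A, ANKRD37, HIF1A, EGLN1, ELN and single cell type markers were named beyond this rule, after their values were seen.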

Additional observations from a re-analysis of the deposited data

How the results depend on the processing

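The log2 changes of LOX, LOXL1 and P4HA2 kept their direction and call under each of 15 alternatives, and 2 alternatives turned a direction, both for LOXL3 (-0.04 without DMSO replicate 2, -0.35 without ACBI1 replicate 1). LOXL2 was called with every gene that had a count (-1.94), with the replicate block (-2.08), by DESeq2 (-1.92) and by limma-voom (-2.09), and LOXL4 with every gene that had a count (-2.10), with the block (-2.09) and by DESeq2 (-2.11). A threshold of 0.01 ended the calls of PLOD1 (-1.30), PLOD2 (-0.97), PLOD3 (-0.87) and P4HA1 (-0.97), and a minimum log2 change of 1 ended the last 3 of these; by construction the log2 changes stayed. P4HA1 was also lost under library size only (-0.89). With 1 library left out, log2 changes ranged from -2.94 to -1.33 (LOXL2), -0.35 to 0.65 (LOXL3), -3.64 to -1.09 (LOXL4), -1.68 to -0.996 (PLOD1), -1.18 to -0.72 (PLOD2), -1.01 to -0.74 (PLOD3) and -1.24 to -0.64 (P4HA1).

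Of the 10 members, 3 were called at 0.01, 4 with the minimum change, 9 with the replicate block (21.9% of all genes lower), and 4 to 9 with 1 library left out. Over all genes, 3331 were called (1294 higher, 2037 lower). The number was 5518 (2202 higher, 3316 lower) with every gene that had a count, 7909 (3708 higher, 4201 lower) with the replicate block, 783 (172 higher, 611 lower) at 0.01, 794 higher with the minimum change, and 1379 to 4292 (415 to 1651 higher, 964 to 2641 lower) with 1 library left out. The share of higher calls was 38.8% of all calls, and 48.5% (1755 higher, 1866 lower) under library size only. At 0.01, 2 genes of the hydroxylation and folding list, 2 of procollagen processing and 3 of the substrate list were called, beside 3.19% of all genes lower. Procollagen processing had 3 with a mean of at least 5 CPM. Fibrillar collagens had 7 with every gene that had a count (10.1% of those genes lower), 8 with the block (21.9%) and 7 by DESeq2 (13.6%). With 1 library left out, the counts were 4 to 10 (hydroxylation and folding), 3 to 4 (processing) and 3 to 7 (substrates). The change in the share of P4HA2, -33.7 points, was -40.0 with the longest transcript or no length (33.7 and 40.0 for P4HA1). The cause of these shifts was not tested. Replicate numbers are not said to mark a shared batch; deviations of same-numbered libraries from their group means correlated at 0.442 across genes. LOXL3 and LOXL4 were left out by the 5 CPM filter, and depth limits what their counts can show.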
